A study of Mus musculus with 4 samples.

Results

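The class B ephrin system was examined in endothelial cells (ECs) sorted from retinas of postnatal day 6 (P6) C57BL/6J pups, in which arteries and veins are being laid down while the vascular front still advances. The members were taken by gene symbol and comprise 8 of the 26822 genes used: the ephrin-B ligands Efnb1, Efnb2 and Efnb3 and the EphB receptors Ephb1, Ephb2, Ephb3, Ephb4 and Ephb6. RNA-seq was done on 4 libraries of viable CD31+/CD45- cells, which form 1 group, with no treated, mutant or other tissue sample. The sort takes ECs of arteries, veins, capillaries and the front together, so that a level is an average over all of them, and fewer cells of a type cannot be told apart from less RNA per cell. The study calls the 4 libraries independent samples, but no label states that each stems from a different animal or litter, so the p-values speak only of the spread among them, which may be technical in part.

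Ephrin-B ligands are transmembrane proteins that bind EphB receptor tyrosine kinases on a touching cell. Binding signals both ways: the receptor kinase starts forward signalling in its own cell, and the cytoplasmic tail of the ligand starts reverse signalling in the other. In vessels, ephrin-B2 is the classical marker of arterial ECs and EphB4, its main vascular partner, the classical marker of venous ECs. Ephrin-B2 is also known for its role in the internalisation of VEGF receptors in sprouting ECs.

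Stretches that carry signalling in either direction are shown here. The levels described next belong to ligands with nearly the same tail end and to receptors of which 1 departs at the catalytic site. The coding sequences are those of GENCODE M21 transcripts on GRCm38. Of the ligand tails the end is shown, as the last 99 coding bases, 5′ to 3′, with capitals for the 77 bases that all 3 ligands share. The rest of the tail was not compared on its own.
Efnb1, chrX:99147426-99147524, plus strand, exon 5: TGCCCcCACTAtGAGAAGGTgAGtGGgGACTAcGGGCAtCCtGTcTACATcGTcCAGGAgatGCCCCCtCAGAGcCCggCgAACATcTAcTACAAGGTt
Efnb2, chr8:8620591-8620689, minus strand, exon 5: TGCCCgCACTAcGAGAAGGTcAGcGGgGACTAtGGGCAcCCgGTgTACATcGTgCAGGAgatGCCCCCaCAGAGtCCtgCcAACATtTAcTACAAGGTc
Efnb3, chr11:69555863-69555961, minus strand, exon 5: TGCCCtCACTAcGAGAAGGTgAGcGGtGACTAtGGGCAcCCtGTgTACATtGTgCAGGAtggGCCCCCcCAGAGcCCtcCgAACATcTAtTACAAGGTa
Exon 5 is the last coding exon of each ligand. The tail ends of Efnb1 and Efnb2 encode the same 33 residues although 84 of 99 bases are identical, and that of Efnb3 shares 30 of 33 residues with either. Over the whole proteins, of 345, 336 and 340 residues, identity was 58.6% between Efnb1 and Efnb2, 47.7% between Efnb1 and Efnb3 and 46.2% between Efnb2 and Efnb3.

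The catalytic loop of the receptor kinases is given as 24 coding bases, 5′ to 3′, with capitals for the codon that aligns with the catalytic aspartate of Ephb4.
Ephb1, chr9:101964031-101964054, minus strand, exon 12: caccggGACctggctgctagaaac
Ephb2, chr4:136659662-136659685, minus strand, exon 12: caccgtGACcttgctgctcgaaac
Ephb3, chr16:21221378-21221401, plus strand, exon 12: caccgtGACcttgctgcccgaaac
Ephb4, chr5:137369806-137369829, plus strand, exon 13: caccgaGACctggctgctcggaac
Ephb6, chr6:41618664-41618687, plus strand, exon 14: caccgaGCActctcggcccgaagt
The codon encodes aspartate in Ephb1, Ephb2, Ephb3 and Ephb4 and alanine in Ephb6, which is known as a receptor without kinase activity. Ephb1, Ephb2 and Ephb3 were the closest receptors, with 71.2% to 73.5% identical residues, Ephb4 shared 57.3% to 61.3% with these, and Ephb6 46.7% to 51.0% with the other 4. Despite this likeness, no run of 75 bases, the length of a read, in any transcript of Efnb1, Efnb2, Efnb3, Ephb2, Ephb3, Ephb4 or Ephb6 occurred in another gene. Of the runs of Ephb1, 1.19% also lie in the antisense RNA Gm26846, and whether the authors counted by strand is not given in the sources used here.

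Values were taken to be read counts per gene that the authors normalised between libraries and rounded, and are called normalised reads below. This was judged from their whole numbers and nearly equal library totals. All 8 members had a value above 0 in every library and a mean of at least 10, the threshold for calling a gene detected, which 56.0% of all genes passed. Low values such as those of Ephb3 may rest on few reads, since their read depth is not known. For comparison between genes, values were divided by the length of the union of exons in kilobases (kb). The median of the 8 members was 80.3 normalised reads per kb, beside 161 for all detected genes.

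**Figure D1:**
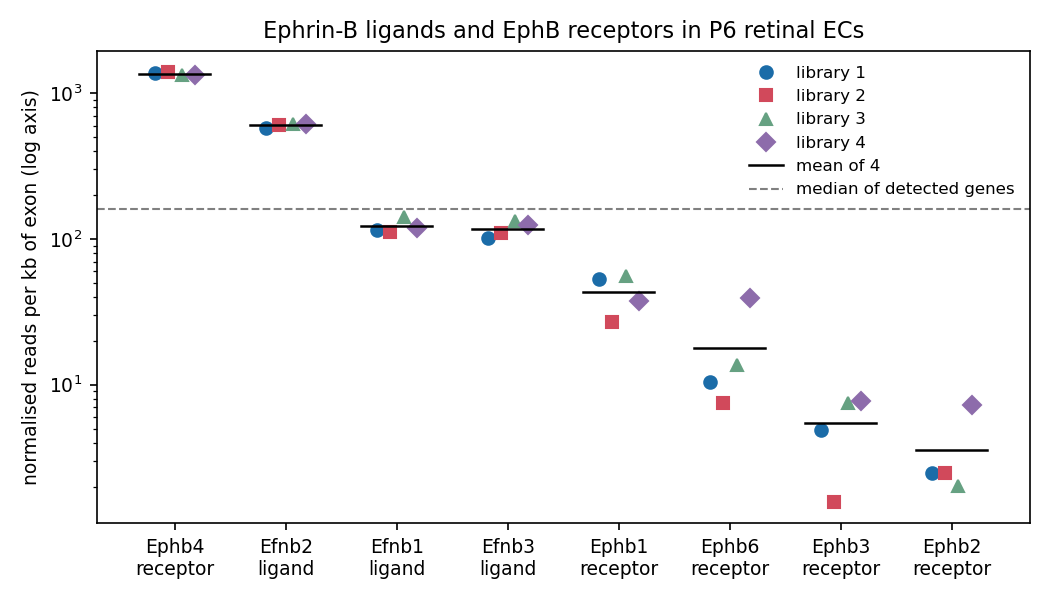
Normalised reads per kb of exon (log axis) for the 3 ephrin-B ligands and 5 EphB receptors, ordered by mean. Symbols are the 4 libraries, bars their mean and the dashed line the median of all detected genes, 161 per kb. Ephb4 and Efnb2 lie above that line in each library and the other 6 members below it.

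Among the ligands, Efnb2 was the highest. Efnb2 (chr8:8617434-8661242, minus strand) had 2761, 2914, 2952 and 2936 normalised reads in libraries 1 to 4, or 603 ± 18.3 per kb (SD, n = 4), a level above that of 81.7% of detected genes. The 4 libraries lay within 1.07-fold of each other. Efnb1 (chrX:99136130-99148991, plus strand), a ligand of EphB receptors known from craniofacial and neural development, had 374, 361, 463 and 390 normalised reads. Its level was 122 ± 14.0 per kb, above 44.6% of detected genes, and library 3 was the highest. Efnb3 (chr11:69554092-69560205, minus strand), known chiefly as a midline guidance cue for axons, had 325, 348, 424 and 398 normalised reads, or 117 ± 14.2 per kb. It was likewise highest in library 3, and its values overlapped those of Efnb1.

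Per kb, Efnb2 was 4.95-fold higher than Efnb1, with a log2 difference of 2.31 ± 0.14 (SD over n = 4 libraries; exact two-sided permutation test, p = 0.0286, adjusted p = 0.0333 over the 28 pairs of members). Each library showed this order. Efnb2 was also 5.14-fold higher than Efnb3, without overlap. Efnb1 and Efnb3 could not be told apart: their log2 difference was 0.05 ± 0.10 and Efnb1 was the higher in libraries 1 to 3 (p = 0.657 by the same exact permutation test). Efnb2 made up 71.7% ± 1.88 of the summed ephrin-B level per kb, Efnb1 14.4% ± 1.10 and Efnb3 13.9% ± 1.02 (SD, n = 4).

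Among the receptors, Ephb4 stood far above the others. Ephb4 (chr5:137350109-137378669, plus strand) had 6009, 6085, 5864 and 5842 normalised reads, or 1361 ± 26.7 per kb (SD, n = 4), above 97.5% of detected genes. The 4 values lay within 1.04-fold of each other. The top of the scale was narrow in these data: the 99th percentile of detected genes was 1546 per kb, 1.81-fold above the 90th, and the highest gene stood at 2854 per kb. The cause of this was not tested.

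Ephb1 was the next receptor. Ephb1 (chr9:101922128-102354693, minus strand), known mainly from axon guidance at the optic chiasm, had 342, 175, 359 and 245 normalised reads, or 43.2 ± 13.3 per kb. Libraries 1 and 3 were high and library 2 was low, with 2.05-fold between the highest and the lowest. Ephb6 (chr6:41605482-41620509, plus strand), the receptor with alanine at the catalytic codon, had 39, 28, 51 and 149 normalised reads, or 17.7 ± 14.8 per kb. Library 4 held the high value, and without it the mean fell to 39.3 normalised reads, against 66.8 over all 4 libraries.

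Ephb3 and Ephb2, receptors with well known roles in axon guidance and in the intestinal epithelium, were the lowest members. Ephb3 (chr16:21204755-21223305, plus strand) had 28, 9, 43 and 44 normalised reads, or 5.42 ± 2.87 per kb, with library 2 the lowest. Ephb2 (chr4:136647539-136835988, minus strand) had 27, 27, 22 and 79 normalised reads, or 3.55 ± 2.47 per kb. Only 2.64% of detected genes had a lower level than Ephb2. Its high value was that of library 4, and the mean of the other 3 libraries was 25.3 normalised reads. The order of Ephb3 and Ephb2 depended on division by length. As deposited, the means were 31.0 normalised reads for Ephb3 and 38.8 for Ephb2, and the values overlapped either way.

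Ephb4 thus made up 95.1% ± 1.60 of the summed EphB level per kb (SD, n = 4), from 93.5% in library 4 to 97.3% in library 2. Ephb1 followed with 3.02% ± 0.93 and Ephb6 with 1.24% ± 1.04, and Ephb3 and Ephb2 held 0.379% ± 0.202 and 0.248% ± 0.173. The 4 receptors other than Ephb4 together had 70.5, 38.5, 78.4 and 92.3 normalised reads per kb in libraries 1 to 4. This sum was 0.0828 ± 0.0258 of the summed ephrin-B level.

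**Figure D2:**
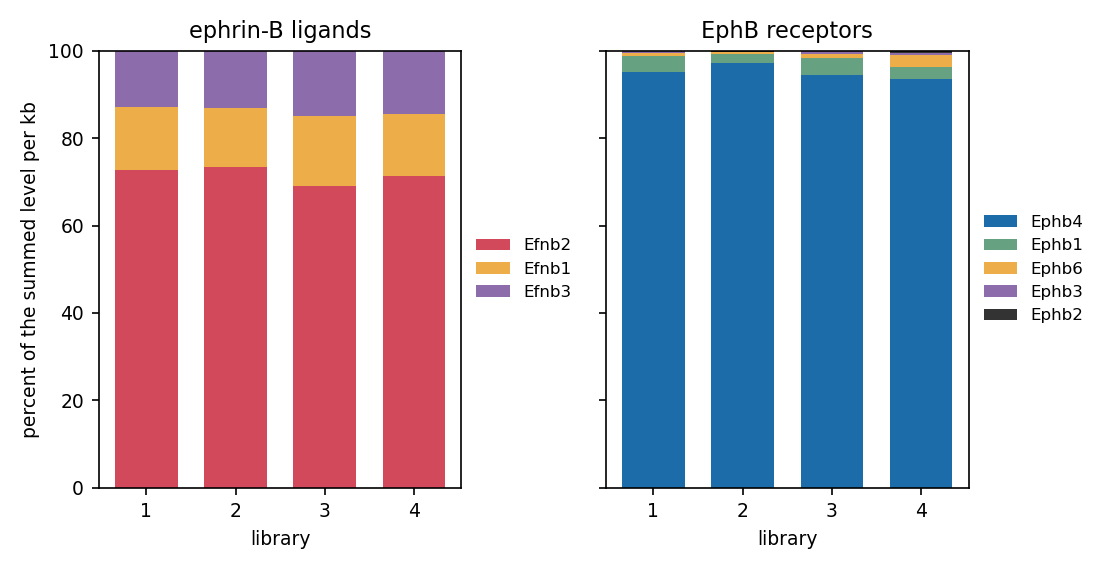
Share of each member in the summed level per kb of the 3 ephrin-B ligands (left) and of the 5 EphB receptors (right) in libraries 1 to 4; the colours of a bar add up to 100 percent. Efnb2 fills 69.1% to 73.4% of the ligand bars and Ephb4 93.5% to 97.3% of the receptor bars.

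The venous receptor and its arterial ligand were then set against each other. Ephb4 was 2.26-fold higher than Efnb2 per kb of exon, with a log2 difference of 1.17 ± 0.06 (SD, n = 4; exact two-sided permutation test, p = 0.0286, adjusted p = 0.0333 over the 28 pairs). It was higher in 4 of 4 libraries, in which the ratio was 2.39, 2.29, 2.18 and 2.18. As deposited, without division by length, the ratio was 2.06 ± 0.09. The order turned with the length that was used: the coding length is 2988 bases for Ephb4 and 1008 bases for Efnb2, and per kb of coding length Ephb4 stood at 1991 ± 39.0 and Efnb2 at 2868 ± 87.2. How much of the untranslated part of each transcript is present in these cells was not measured. The pools turned in the same way: the summed EphB level was 1.70 ± 0.10 times the summed ephrin-B level per kb of exon and 0.590 ± 0.030 times it per kb of coding length. Ephb4 lies at the narrow top of the scale described above, and Efnb2 lies below it. The part of the scale in these ratios and in the share of Ephb4 in the EphB level was not tested.

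Across the family, 24 of the 28 pairs of members did not overlap in their 4 values, and each of these reached the smallest p that 4 values against 4 allow, 0.0286 (exact two-sided permutation test; adjusted p = 0.0333). Among all pairs of detected genes 89.0% did not overlap either, so that a separate pair is the common case. The order by mean was Ephb4, Efnb2, Efnb1, Efnb3, Ephb1, Ephb6, Ephb3 and Ephb2, and libraries 1 and 3 had all 8 members in this order. In library 2 Ephb2 and Ephb3 changed places, and in library 4 Efnb3 stood before Efnb1 and Ephb6 before Ephb1. Of the 7 neighbours in the order, the steps Ephb4 to Efnb2, Efnb2 to Efnb1 and Efnb3 to Ephb1 exceeded the spread.

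The other 4 neighbouring pairs overlapped. Beside Efnb1 and Efnb3, these were Ephb1 and Ephb6, with a log2 difference of 1.52 ± 1.08 (exact permutation p = 0.0857), Ephb6 and Ephb3, with 1.60 ± 0.75 (exact permutation p = 0.0571), and Ephb3 and Ephb2, with 0.60 ± 1.05 (exact permutation p = 0.429). Ephb1 and Ephb6 did not overlap once library 4 was left out, with a log2 difference of 2.04, and Ephb6 and Ephb3 did not overlap without library 2, with 1.42, or without library 4, with 1.35. With 3 values against 3 no p under 0.1 can be had. Efnb3 and Ephb1 were apart per kb, by 1.49 ± 0.47 on the log2 scale, but overlapped as deposited, by 0.46 ± 0.47.

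Class A genes, whose ligands are held in the membrane by a lipid anchor, are the nearest relatives and showed a like shape. Efna1, a ligand known from the response of ECs to inflammatory cytokines, had 2413, 2392, 2381 and 2342 normalised reads, or 1302 ± 16.3 per kb, and made up 91.9% ± 1.71 of the summed ephrin-A level. Efna4 followed with 69.4 ± 12.8 and Efna2 with 21.4 ± 14.3 normalised reads per kb. Epha2, the main receptor of ephrin-A1, stood at 350 ± 28.7 per kb and made up 57.2% ± 7.28 of the summed EphA level, less than the 95.1% that Ephb4 took among the EphB receptors, without overlap between the 4 libraries. Of 5 class A ligands 4 were detected and of 8 class A receptors all 8. Their medians were 21.4 and 38.1 normalised reads per kb, beside 122 for the class B ligands and 17.7 for the class B receptors.

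Epha4 is the receptor of class A that also binds ephrin-B ligands. It was set against the class B members after its values had been seen. Epha4 had 564, 616, 565 and 657 normalised reads, or 94.9 ± 7.08 per kb. Epha4 was higher than Ephb1, with a log2 difference of 1.19 and no overlap (exact two-sided permutation test, p = 0.0286, adjusted p = 0.0327 over the 8 comparisons). It was thus, per kb, the highest of the receptors known to bind ephrin-B ligands after Ephb4, from which it differed by -3.84 on the log2 scale. Epha8 and Epha7, the next class A receptors, stood at 64.0 ± 54.9 and 47.8 ± 10.5 normalised reads per kb. Epha8 had 670 normalised reads in library 4 and 149, 290 and 97 in libraries 1 to 3.

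Beside the genes of arterial identity, Efnb2 was an upper middle member. Of the 16 genes of the arterial list all 16 were detected, with a median of 330 normalised reads per kb, and 6 lay above Efnb2. Nrp1, a co-receptor of VEGF and semaphorins, led with 1633 ± 44.0 per kb, followed by Gja4, which encodes connexin 37, with 1350 ± 75.8, and Notch4 with 1187 ± 47.7. Of the 10 genes of the venous list all 10 were detected, with a median of 608 per kb, and 3 lay above Ephb4. These were Aplnr, the apelin receptor, at 1752 ± 22.9, Tek, the angiopoietin receptor, at 1697 ± 12.02, and the amino acid carrier Slc38a5 at 1547 ± 22.9. Several genes of both lists are also expressed outside arteries or veins, and these whole-retina averages do not place Efnb2 or Ephb4 in a vessel type.

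The tip cell list marks the leading ECs of sprouts. All 12 of its genes were detected, with a median of 796 normalised reads per kb, above Efnb2 and below Ephb4. The sialomucin Cd34 led with 1819 ± 62.2, followed by Apln, the ligand of Aplnr, with 1621 ± 47.3 and the basement membrane gene Nid2 with 1562 ± 5.09.

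**Figure D3:**
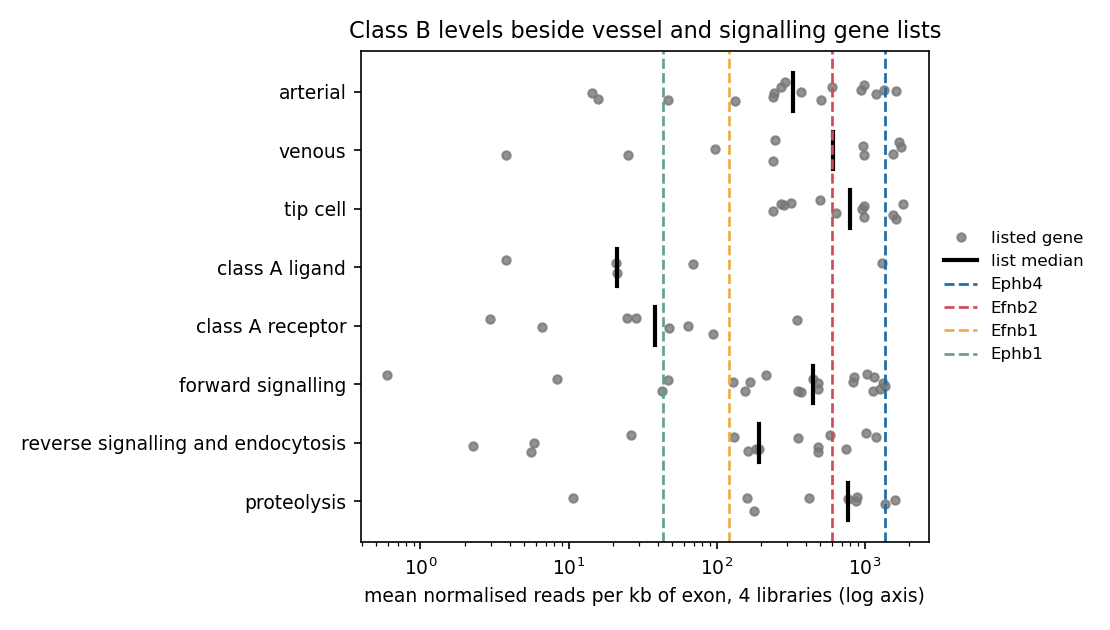
Mean normalised reads per kb of exon (log axis) of each gene in 8 lists (grey points, jittered up and down) with the list median (black bar). Dashed lines mark Ephb4 at 1361, Efnb2 at 603, Efnb1 at 122 and Ephb1 at 43.2; the Efnb2 line runs close to the venous median of 608 and the Ephb4 line lies above every list median.

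The forward signalling list holds 21 genes that act downstream of EphB receptors. Of these 20 were detected, with a median of 445 normalised reads per kb beside 161 for all detected genes, which 15 of the 21 exceeded. The highest were the adaptor Grb10, a binding partner of Eph receptors, at 1376 ± 16.7, the Src family kinase Fyn at 1321 ± 35.6 and Arhgef15, an ephexin that is expressed in ECs and activates RhoA, at 1260 ± 42.1. Ngef, the neural ephexin, was the gene not detected, with values of 0, 8, 0 and 0. Rasa1, which encodes the RasGAP recruited by activated EphB4, stood at 849 per kb.

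The reverse signalling and endocytosis list holds partners of the ligand tail. All 15 of its genes were detected, with a median of 193 normalised reads per kb, and 10 of them exceeded the median of all detected genes. Dab2, a clathrin adaptor that takes part in VEGF receptor internalisation, led with 1191 ± 36.1, followed by Sdcbp (syntenin, a PDZ protein that binds the end of the ephrin-B tail) with 1015 ± 13.0 and Stat3 with 749 ± 57.8. The PDZ adaptors Grip1 and Grip2, known as ephrin-B partners in neurons, were near the bottom, Grip2 with 12, 25, 7 and 3 normalised reads. Rgs3, which binds the ephrin-B tail through its PDZ domain, stood at 582 ± 20.3 per kb.

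Of the 9 proteolysis genes, which cut ephrins and Eph receptors at the membrane, all 9 were detected, with a median of 768 normalised reads per kb. Adam10, the sheddase of ephrins, led with 1605 ± 39.4, followed by Ncstn, a subunit of gamma-secretase, with 1365 ± 18.7 and Adam17 with 885 ± 55.7. The medians of the forward, reverse and proteolysis lists lay at 74.0%, 53.6% and 87.5% of the ordered detected genes. These lists were chosen with earlier results of the data known, and the numbers describe them.

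The genes whose levels lay nearest to each member over the 4 libraries were sought among 91 genes of the vessel, class A, signalling and proteolysis lists, by the largest absolute log2 difference per kb in any library. Ephb4 was nearest to Ncstn, within 0.02, and to Grb10, within 0.05. All of these lie at the narrow top of the scale, and its part in the match was not tested. Efnb2 was nearest to Rgs3, within 0.13, and to Plaur, the urokinase receptor, within 0.16. Efnb1 was nearest to the exchange factor Vav2, within 0.33, and Efnb3 to Dvl2 (Dishevelled 2), within 0.32. For Ephb1 the nearest was the scaffold Itsn1, within 0.53, and for Ephb6 the ligand Efna2, within 0.82. Ephb3 was nearest to Grip1, within 0.79, and Ephb2 to the gamma-secretase subunit Aph1b, within 1.99, so that the low members had no close neighbour.

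The spread between libraries was then compared with that of other genes of the same level, by setting the SD of log2(normalised reads + 1) against a trend over all detected genes. None of the 8 members passed a robust z of 3, which 3.3% of detected genes passed. At a robust z above 2, 2 members passed, Ephb6 with 2.63 and Ephb1 with 2.47. Of all detected genes, 95.7% had a lower z than Ephb6 and 95.1% a lower z than Ephb1. Efnb2 and Ephb4 lay under the trend, with an SD of 0.04 against 0.07 expected and 0.03 against 0.05 expected. Efnb1 and Efnb3 lay on it, with 0.957 and 1.02 times the expected SD. Ephb1 and Ephb6 had 2.43 and 2.51 times the expected SD, Ephb3 1.80 and Ephb2 1.62 times. Ephb6 passed a z of 3 when library 1 or library 3 was left out, and Ephb1 when library 4 was left out. The share of all detected genes that passed with a library left out was not counted.

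**Figure D4:**
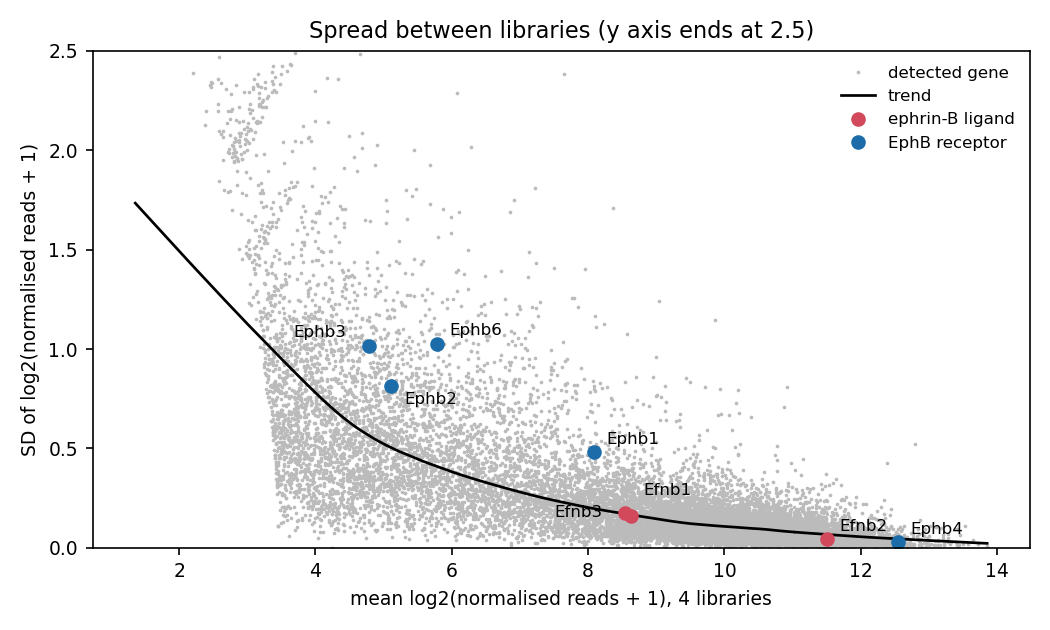
SD of log2(normalised reads + 1) over the 4 libraries against the mean for each detected gene (grey), with the trend (black line) and the members (red ligands, blue receptors). Genes with an SD above 2.5 lie outside the axis. Ephb4, Efnb2, Efnb1 and Efnb3 lie on or under the trend, and Ephb1, Ephb6, Ephb3 and Ephb2 lie above it.

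The members fell into those that differed little between libraries and those that did not. Of the 8 members, 3 (Ephb2, Ephb3 and Ephb6) had their highest value in library 4, beside 30.6% of detected genes, and 4 (Efnb1, Ephb1, Ephb3 and Ephb6) their lowest in library 2, beside 22.3% of detected genes. In library 4, Ephb6 was 3.82-fold and Ephb2 3.05-fold higher than the mean of the others on the log2 scale, whereas Efnb2 was 1.02-fold and Ephb4 0.976-fold. Markers of other cells moved in the same libraries. All 10 photoreceptor markers were highest in library 4, where their summed normalised reads were 13714, against 4760 to 5887 in the others. The 10 pericyte and smooth muscle markers, 9 of them detected, summed to 2037, 573, 2243 and 3787 in libraries 1 to 4, and the 7 bipolar cell markers to 2026, 1900, 2261 and 3964. Of the detected genes, 7 of 9 pericyte and smooth muscle markers and 3 of 7 bipolar cell markers were highest in library 4. The part of these cells in the values of Ephb6, Ephb2 and Ephb3 was not tested.

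Library 2 was low in several markers at once. The 6 astrocyte markers, 3 of them detected, summed to 1171, 103, 832 and 687 normalised reads, and Aqp4 was listed at 0 throughout. The pericyte and smooth muscle (573), erythroid (249), leukocyte (28), bipolar (1900) and ganglion cell (3711) sums were also lowest in library 2. Those of the photoreceptor, amacrine and horizontal cell, progenitor and Müller glia, and endothelial lists were not. Ephb1 had 175 normalised reads in library 2 and 245 to 359 in the others. The part of any of these cells in the level of Ephb1 was not tested. The 10 endothelial markers, which were all detected with a median of 1662 per kb, summed to 53022 to 54591. That median and the level of Ephb4 lie at the narrow top of the scale described above, and the part of the scale in their small spread was not tested. The 8 leukocyte markers, 4 of them detected, summed to 28 to 133. Of the other lists, 4 of 8 ganglion cell markers were detected (sums 3711 to 4211, Pou4f2 at 0), 3 of 7 amacrine and horizontal cell markers (57 to 292, Lhx1 at 0), 9 of 9 progenitor and Müller glia markers (6830 to 7526) and 5 of 6 erythroid markers (249 to 826). Rbpms alone gave 3331 to 3638 of the ganglion cell sums, and the next gene, Sncg, 243 to 323. In the progenitor and Müller glia sums, Hes1 gave 2227 to 2260 and Glul 1796 to 1972. Of that list, 6 of 9 genes were highest in library 4, beside 30.6% of detected genes.

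**Figure D5:**
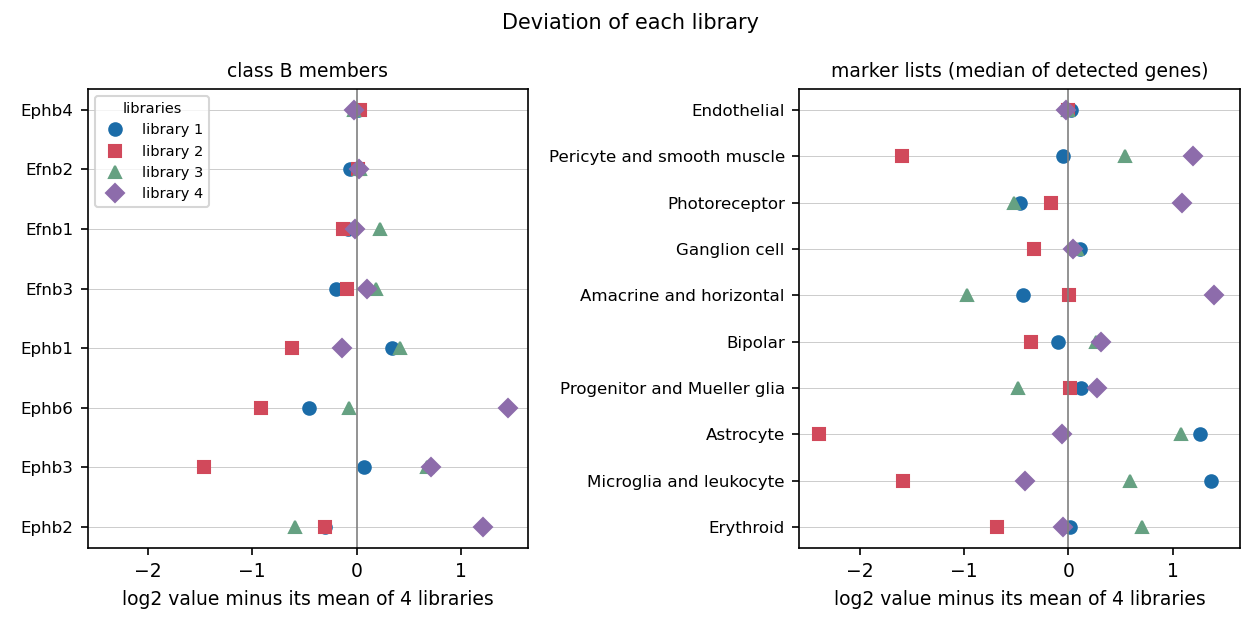
Log2(normalised reads + 1) in each library minus the mean of the 4 libraries, for the 8 members (left) and for the median of the detected genes of each marker list (right). Ephb4, Efnb2 and the endothelial list stay near 0. Ephb6 and Ephb2 reach 1.45 and 1.21 in library 4. There the amacrine and horizontal, pericyte and photoreceptor lists stand at 1.39, 1.19 and 1.09, and no other list above 0.316. Ephb3 reaches -1.46 in library 2. There the astrocyte, pericyte and leukocyte lists stand at -2.39, -1.60 and -1.58, and no other list below -0.682.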

How the data were processed

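RNA-seq libraries of sorted P6 retinal ECs were analysed in 1 group of 4, named 1 to 4 as in the labels. The deposited values are treated as a score: judged from their whole numbers and nearly equal library totals, the authors scaled read counts per gene between libraries and rounded them. The study describes RNA-seq for HUVECs (human umbilical vein ECs), mapped to a human genome by STAR, and the labels also describe the RNA extraction for HUVECs. For the mouse libraries the aligner, genome build, annotation, scaling and handling of duplicate reads are not given in the sources used here. FastQC is named in the submitters' processing notes. The rounded values do not give the read depth, so no counting interval is given and no count model was fitted; totals over the genes used were 14843847 to 15017241. Of 26834 rows, 1 per symbol was used (the highest), giving 26822 genes; 15012 of these passed the mean of 10. Positions equalled GENCODE M21 (GRCm38) for 99.2% of the genes found there and for all 8 members. Library 4 stood apart, with Pearson correlations across genes of 0.960 to 0.965 with the others, which correlated at 0.970 to 0.974 with each other.

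Values were analysed as log2(value + 1), minus log2 of the exon union in kb where genes were compared. This understates differences of low genes. Pairs of genes were tested by exact two-sided permutation (70 splits) with Benjamini-Hochberg adjustment. This test ignores the pairing within libraries, and the sign-flip test that uses it cannot go below 0.125. The trend was a lowess fit (fraction 0.2, 3 iterations; statsmodels 0.14.6, numpy 2.4.6, Python 3.11.15) with the residual scaled by its local spread, and was tested on simulated data. Proteins were aligned with Biopython 1.88.

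The named genes were the 8 members, the 3 highest class A ligands and 4 highest class A receptors, the 3 highest genes of each vessel, signalling and proteolysis list, the lowest where a count turned on it, and the 2 nearest genes of a member. Rasa1, Gja5, Sema3g and Dll4 were added after their values were seen. The members and lists were chosen with earlier results of these data known. Epha6, Pou4f3 and Onecut1 were not analysed here.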

Additional observations from a re-analysis of the deposited data

Results flagged for a closer look

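Ephb2 had 79 normalised reads in library 4, against 27, 27 and 22 in libraries 1 to 3, so that 1 library lay far from the others (gap over range 0.912). The share of Ephb2 in the summed EphB level was likewise 0.507% in library 4, with a gap over range of 0.915, and rests on the same value. Of 46 levels and shares of class A and class B genes looked at in this way, 2 stood out, where chance alone gives about 1 in 20, or 2.3. The summed photoreceptor, pericyte and smooth muscle, and bipolar cell markers were also highest in library 4. This held for 10 of 10 photoreceptor genes, 7 of 9 detected pericyte and smooth muscle genes and 3 of 7 bipolar genes. Of all detected genes, 30.6% were highest there. The part of these cells in the value of Ephb2 was not tested.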

How the results depend on the processing

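The number of pairs without overlap was 23 to 26 under all 10 alternatives run, with 24 to 26 when a library was left out. Efnb2 stayed above Efnb1 without overlap in 9 of 9, and Ephb4 above Efnb2 in 8 of 9. Per kb of GENCODE coding length, an alternative chosen after seeing the data, the log2 difference of Ephb4 and Efnb2 was -0.53, since the exon unions of these genes hold very different amounts of untranslated sequence. Per kb of exon it was 1.15 to 1.19 with a library left out. The Ephb4 share of the EphB level was 93.5% as deposited and 93.4% per kb of coding length, and the Efnb2 share of the ephrin-B level 79.0% and 79.3%, against 95.1% and 71.7%; leaving out a library gave 94.4% to 95.6% and 71.1% to 72.5%. The count of members past the trend was 0 with a pseudocount of 5 and with a mean of at least 1 or at least 50, 2 at a robust z above 2 (Ephb1 and Ephb6), and 0 to 1 with a library left out. The share of all detected genes past the trend was not counted under these alternatives. Ephb6 and Ephb3 did not overlap with a pseudocount of 5 (log2 difference 1.48); Ephb1 and Ephb6 did not overlap as deposited (2.30) or per kb of coding length (2.35). Coding length from RefSeq proteins was not run, as no such table was used here. No paired analysis was possible because 1 group gives no pairs of samples between groups; genes are paired within libraries, but the exact sign-flip test on those pairs cannot go below 0.125. The unknown depth limits what can be said of Ephb2, Ephb3 and Ephb6.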

Other observations

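Gja5, which encodes the arterial connexin 40, had 58 normalised reads in library 4, against 332, 316 and 358 in libraries 1 to 3. Sema3g, another gene of the arterial list, was 0.606-fold in library 4 relative to the mean of the others on the log2 scale. Efnb2 had 2936 normalised reads in library 4, against 2761 to 2952 in the others, and Dll4, the Notch ligand of arterial and tip ECs, 4198 against 3551 to 3622. Over the arterial list, 8 of 16 genes were lowest in library 4, beside 33.0% of detected genes, and so were 7 of 10 venous genes, 9 of 12 tip cell genes and 7 of 10 endothelial markers, so that this count is not particular to arterial genes. These genes were named after their values were seen, and no correlation is given over 4 libraries.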
